A study of Mus musculus with 9 samples.

Results

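The genes described here carry bile acids through the intestinal lining or sense them: Slc10a2, Fabp6, Slc51a, Slc51b, Nr1h4, Nr0b2, Fgf15 and Gpbar1. These 8 genes were taken by name from a table of 48708 genes, and each matched 1 row. RNA was sequenced in 9 libraries, 3 per group, from the small intestine of C57BL/6 mice aged 8 postnatal weeks with acute graft-versus-host disease (GVHD), an attack of grafted donor immune cells on host tissues. The RIPK3-KO group lacks Ripk3, a kinase of the cell death pathway necroptosis, in the whole body. The Villin-cre RIPK3fl/fl group carries floxed Ripk3 alleles and a Cre driven by the Villin promoter, which is active in the intestinal epithelium, and the third group is wild type (WT). GVHD is common to all groups, so no comparison here measures the disease itself. No floxed-only or Cre-only control is named among these groups, so the Cre, the floxed alleles and the loss of Ripk3 cannot be told apart in the comparison of Villin-cre RIPK3fl/fl with WT. The labels give neither the genotype of the transplanted cells nor the segment of the small intestine.

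Bile acids are made in the liver, secreted into the gut and largely recovered in its last segment, the ileum. There the apical transporter encoded by Slc10a2 takes them up, the binding protein encoded by Fabp6 carries them through the cell, and the paired chains encoded by Slc51a and Slc51b export them across the basolateral membrane. Inside the cell they activate the nuclear receptor FXR, encoded by Nr1h4. FXR raises Fgf15, a hormone that lowers hepatic bile acid synthesis, and Nr0b2, which encodes the repressor SHP, while Gpbar1 encodes the cell surface receptor TGR5.

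Total counts were 25375499 to 41038990 per library. Ripk3 was at 3.88, 3.57 and 3.40 CPM (counts scaled to library size) in RIPK3-KO, 5.54, 7.36 and 6.46 CPM in Villin-cre RIPK3fl/fl and 113, 114 and 112 CPM in WT, which matches the labels. The groups also differed in other ways. Xist, expressed from the inactive X chromosome, was at 272 to 283 CPM in RIPK3-KO, 7.07 to 7.90 CPM in Villin-cre RIPK3fl/fl and 6.67 to 10.6 CPM in WT. The Y-linked gene Ddx3y was at 0.290 to 0.708 CPM in RIPK3-KO, 34.6 to 43.3 CPM in Villin-cre RIPK3fl/fl and 37.8 to 41.0 CPM in WT, so sex and genotype cannot be told apart in either comparison with RIPK3-KO. The design text calls the samples duplicated without saying in what way. Since separate animals are not named for the libraries of a group, the spread behind every p-value here may be a technical one.

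The 8 genes fell into 3 abundant and 5 scarce ones. On the deposited TPM scale, which corrects for gene length, Slc51b averaged 215 ± 2.37 TPM in RIPK3-KO, 297 ± 4.58 TPM in Villin-cre RIPK3fl/fl and 388 ± 3.43 TPM in WT (SD, n = 3 each). Slc51a averaged 166 ± 4.02 TPM in RIPK3-KO, 209 ± 12.6 TPM in Villin-cre RIPK3fl/fl and 108 ± 3.82 TPM in WT. Nr1h4 averaged 28.7 ± 2.08 TPM in RIPK3-KO, 33.8 ± 0.894 TPM in Villin-cre RIPK3fl/fl and 67.9 ± 4.24 TPM in WT. The ranges of these 3 genes did not overlap within any group, so the order Slc51b, Slc51a, Nr1h4 held in every library. In WT, 2.25% of the 16539 tested genes had a higher mean TPM than Slc51b, 8.23% than Slc51a and 12.9% than Nr1h4. Fabp6 came next by its mean, at 2.36 ± 0.692 TPM in RIPK3-KO, 4.56 ± 1.63 TPM in Villin-cre RIPK3fl/fl and 5.23 ± 0.574 TPM in WT. Nr0b2, Gpbar1 and Slc10a2 reached at most 3.03, 1.38 and 0.416 TPM in any library. Nr0b2 and Gpbar1 overlapped in every group, while Slc10a2 lay below both in the deletion groups and overlapped them in WT. Fgf15 was last, at 0.0893 TPM or less. TPM is scaled to a total that differs between libraries, so these values rank genes within a group. Differences of single genes between groups are read from counts below.

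The uptake and hormone genes of the ileum were thus scarce in all groups, with at most 28 counts of Slc10a2 and 3 of Fgf15 in any library. The carrier gene Fabp6 was low but measured, with 71.3% of tested genes at a higher mean TPM in RIPK3-KO, 56.7% in Villin-cre RIPK3fl/fl and 58.7% in WT. Slc10a2 had 28, 22 and 16 counts in RIPK3-KO, 13, 11 and 6 counts in Villin-cre RIPK3fl/fl and 6, 11 and 14 counts in WT. Gata4, a transcription factor of the upper small intestine, was at 136 to 140 CPM in RIPK3-KO, 148 to 155 CPM in Villin-cre RIPK3fl/fl and 141 to 151 CPM in WT. It is 1 of 16 listed proximal genes and was picked after its values were seen. Others differed between groups, Lct with 735, 437 and 162 CPM and Pdx1 with 8.21, 30.0 and 41.0 CPM on average in the same order. Gata4 therefore does not show that all groups were sampled at 1 position. The levels of Slc10a2 and Fgf15 do not bear out the word ileal for the sampled tissue. With GVHD in all groups, the segment sampled and an effect of the disease on these genes cannot be told apart. The genes are therefore called here by their roles in bile acid transport and sensing.

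**Figure D1:**
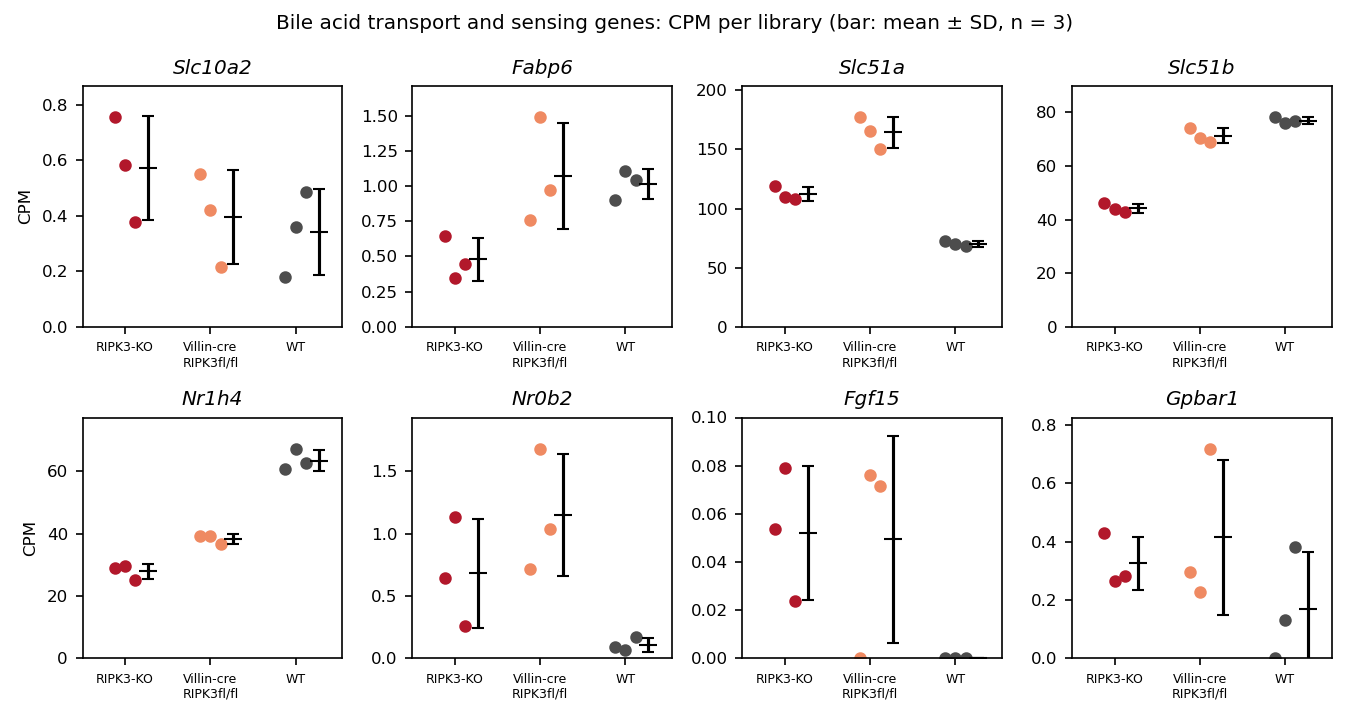
CPM of each of the 8 genes (vertical axes, linear, each with its own scale) in the 3 libraries of RIPK3-KO, Villin-cre RIPK3fl/fl and WT, with the mean and SD beside the points. Slc51a, Slc51b and Nr1h4 are measured at 25.2 CPM or more in every library, while Slc10a2, Fabp6, Nr0b2, Fgf15 and Gpbar1 stay at 1.68 CPM or less.

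The DNA just before the start sites of 3 of these genes is shown, chosen after their values were seen. In RIPK3-KO against WT, Slc51a was higher, while Slc51b and Fabp6 were lower. In Villin-cre RIPK3fl/fl against WT, only Slc51a of the 3 passed the threshold given below. All 3 were lower in RIPK3-KO than in Villin-cre RIPK3fl/fl. The part of FXR in these differences was not tested. FXR with its partner RXR is known for binding an inverted repeat of 2 half-sites spaced by 1 base (IR1). The 250 bases before the start were read from RefSeq (GRCm38.p6), which held 7 of the 8 genes (no entry for Fgf15), on the gene's own strand, the minus strand for all 3. They are chr11:43601563-43601812 for Fabp6, chr16:32487880-32488129 for Slc51a and chr9:65422774-65423023 for Slc51b. Capitals mark IR1-like letters in Fabp6 and the half-site AGGTCA, or its reverse complement TGACCT, in Slc51a and Slc51b.
Fabp6: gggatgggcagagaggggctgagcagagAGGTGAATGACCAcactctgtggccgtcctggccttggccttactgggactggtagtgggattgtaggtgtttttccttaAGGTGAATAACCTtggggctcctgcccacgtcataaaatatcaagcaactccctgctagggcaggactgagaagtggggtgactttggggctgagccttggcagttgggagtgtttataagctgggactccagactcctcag
Slc51a: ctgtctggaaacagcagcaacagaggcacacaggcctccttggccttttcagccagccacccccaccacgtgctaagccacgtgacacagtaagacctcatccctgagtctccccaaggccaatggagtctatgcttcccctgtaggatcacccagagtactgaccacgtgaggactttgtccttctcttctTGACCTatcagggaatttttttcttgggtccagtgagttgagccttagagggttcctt
Slc51b: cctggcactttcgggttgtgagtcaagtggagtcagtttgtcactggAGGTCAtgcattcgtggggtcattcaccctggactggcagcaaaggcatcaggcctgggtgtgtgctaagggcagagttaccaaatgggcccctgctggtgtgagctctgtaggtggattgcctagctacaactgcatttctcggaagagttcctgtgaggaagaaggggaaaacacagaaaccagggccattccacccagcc
IR1, the half-site AGGTCA, then 1 base of any kind, then its reverse complement TGACCT, was searched on both strands with up to 2 mismatches, which 0.959% of 32851 such upstream stretches held. Fabp6 held 2 such matches, starting at -222 and -142 from the annotated start, each with 2 mismatches. The exact half-site was in 14.0% of the stretches. It was found at -58 in Slc51a, at -203 in Slc51b and, in a sequence not printed, at -214 in Nr1h4. The Nr1h4 window, chr10:89506659-89506908, lies before a RefSeq start inside the gene span given below. Its letters are therefore not next to the outermost start of Nr1h4. The half-site is contained in a perfect IR1, but neither Fabp6 match holds it exactly. DR1, the half-site repeated in the same direction after 1 base, was also searched on both strands and was found with up to 2 mismatches in Nr1h4, where it contains the half-site, beside 3.24% of all stretches. LRH1, the letters TCA before the half-site, searched in the same way, was found with up to 1 mismatch in 6.35% of all stretches and in none of the 7. A match describes letters in this window and is not a measured binding site.

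Counts were compared with edgeR's quasi-likelihood test over all 16539 genes that passed a filter on low counts, p-values adjusted by Benjamini-Hochberg, and 0.05 as the threshold. "Called" is used below for a gene past it, and "rose" or "fell" for such genes alone. Fgf15 did not pass the filter, and the other 7 genes were tested. RIPK3-KO against WT gave 5 calls among them, with Slc51a and Nr0b2 higher and Nr1h4, Slc51b and Fabp6 lower, where 55.4% of all tested genes were called (27.3% higher and 28.1% lower). Villin-cre RIPK3fl/fl against WT gave 3 calls, with Slc51a and Nr0b2 higher and Nr1h4 lower, where 55.6% of all genes were called (27.2% higher and 28.4% lower). RIPK3-KO against Villin-cre RIPK3fl/fl gave 4 calls, with Nr1h4, Fabp6, Slc51a and Slc51b lower, where 31.7% of all genes were called (16.6% higher and 15.1% lower). The libraries of the compared groups did not overlap for 63.5%, 61.4% and 40.8% of all tested genes in these comparisons. The first 2 comparisons share the WT libraries. Most tested genes were called against WT, so a call alone does not set these genes apart, and the size and direction of each change are given below. Nr0b2, with few counts, passed the filter through the groups where it was high.

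**Figure D2:**
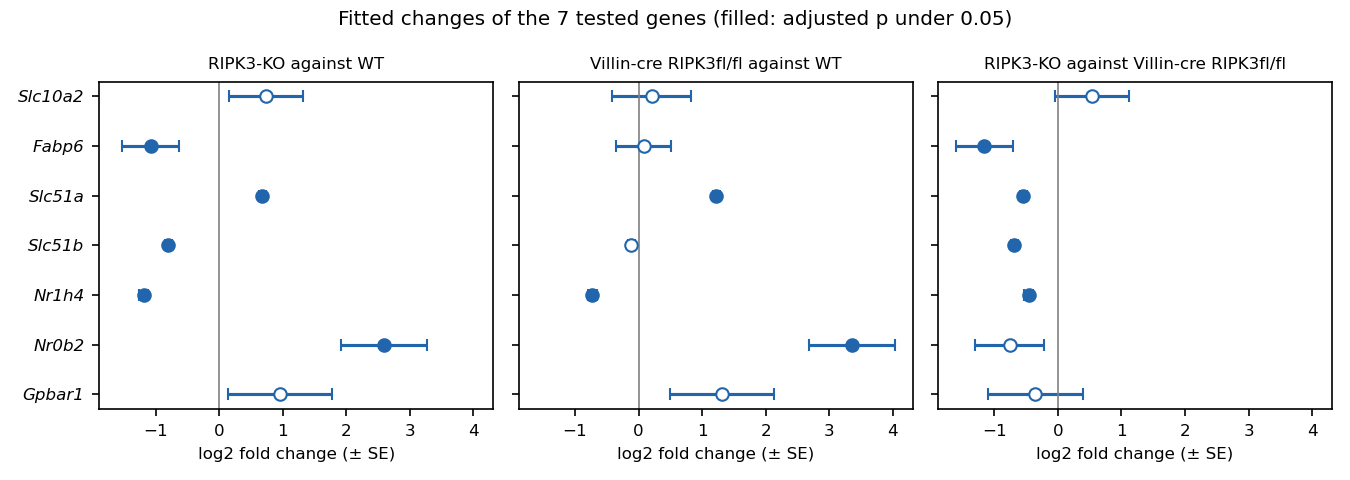
Fitted log2 fold change with its SE (horizontal axis) of the 7 tested genes in RIPK3-KO against WT, Villin-cre RIPK3fl/fl against WT and RIPK3-KO against Villin-cre RIPK3fl/fl, with filled points for adjusted p under 0.05. Slc51a lies above 0 and Nr1h4 below 0 in both comparisons with WT, and all 4 filled points lie below 0 between the deletion groups.

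Slc51a and Slc51b encode the chains that must pair to export bile acids from the enterocyte, and they moved differently. Slc51a (ENSMUSG00000035699, mm10 chr16:32475522-32487879, protein-coding) was at 119, 110 and 108 CPM in RIPK3-KO, 177, 166 and 150 CPM in Villin-cre RIPK3fl/fl and 72.9, 69.8 and 68.0 CPM in WT. The 3 groups did not overlap, and the Villin-cre RIPK3fl/fl libraries were the highest. Slc51a rose by a log2 fold change of 0.68 (SE 0.059, edgeR adjusted p = 3.3e-10) in RIPK3-KO against WT and by 1.23 (SE 0.059, adjusted p = 3.5e-15) in Villin-cre RIPK3fl/fl against WT. It was lower by -0.55 (SE 0.057, adjusted p = 3.0e-08) in RIPK3-KO than in Villin-cre RIPK3fl/fl. In bulk tissue, fewer cells of a type and less RNA per cell cannot be told apart, for this gene and for all those that follow.

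Slc51b (ENSMUSG00000053862, mm10 chr9:65412753-65422773, protein-coding) was at 46.1, 43.9 and 42.7 CPM in RIPK3-KO, 74.3, 70.6 and 68.9 CPM in Villin-cre RIPK3fl/fl and 78.1, 75.8 and 76.9 CPM in WT. The RIPK3-KO libraries lay far below both other groups, and the Villin-cre RIPK3fl/fl libraries lay just under those of WT. Slc51b fell in RIPK3-KO against WT (log2 fold change -0.80, SE 0.057, edgeR adjusted p = 6.7e-12) and against Villin-cre RIPK3fl/fl (-0.69, SE 0.057, adjusted p = 3.7e-10). Villin-cre RIPK3fl/fl against WT gave -0.11 (SE 0.056, adjusted p = 0.094), which became 0.0498 without Villin-cre RIPK3fl/fl replicate 1. The deposited TPM of Slc51b was 293 to 302 in Villin-cre RIPK3fl/fl and 386 to 392 in WT, a wider gap than in CPM. TPM is a share of each library's length-corrected total. With fixed gene lengths, the wider gap is therefore a scaling of the whole library and not specific to Slc51b. Nr1h4 likewise averaged 38.3 CPM and 33.8 TPM in Villin-cre RIPK3fl/fl, beside 63.5 CPM and 67.9 TPM in WT. The exons of Slc51b share 91 bases with Rasl12 on the opposite strand, and whether counting used strand is not given in the sources used here. Rasl12 was at 8.56 to 10.3 CPM in RIPK3-KO, 4.52 to 5.72 CPM in Villin-cre RIPK3fl/fl and 6.34 to 7.32 CPM in WT, well under Slc51b.

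The ratio of the 2 chains within a library does not depend on library scaling, and it was chosen after its values were seen. Slc51a divided by Slc51b, both in TPM, was 0.790, 0.763 and 0.774 in RIPK3-KO, 0.727, 0.716 and 0.665 in Villin-cre RIPK3fl/fl and 0.285, 0.281 and 0.270 in WT. Both deletion groups were far above WT and did not overlap each other. The geometric mean ratio was 2.79-fold that of WT in RIPK3-KO and 2.52-fold that of WT in Villin-cre RIPK3fl/fl, and 1.10-fold higher in RIPK3-KO than in Villin-cre RIPK3fl/fl. An exact two-sided permutation test gave p = 0.1 in each comparison, the smallest p that 3 libraries against 3 allow. By the deposited TPM, WT thus had more transcript of the Slc51b chain per length, and in the deletion groups the chains were closer to parity. How close depends on the gene lengths used for TPM. The deposited spans of both genes differ from those in GENCODE M21, where their exons cover 3198 bases for Slc51a and 709 for Slc51b. A length that is constant over libraries leaves the fold between groups unchanged.

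**Figure D3:**
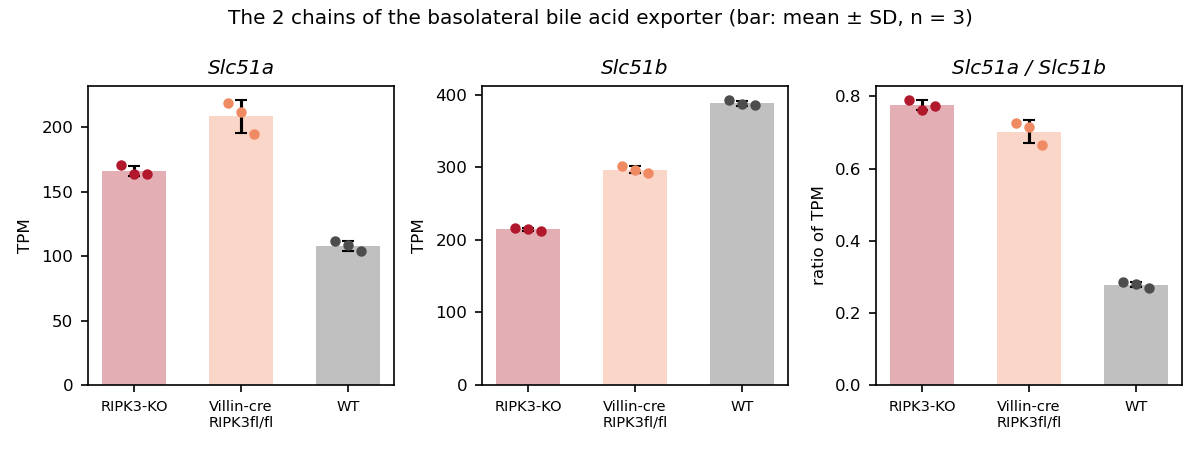
TPM of Slc51a and Slc51b and the ratio of the first to the second (vertical axes from 0) in RIPK3-KO, Villin-cre RIPK3fl/fl and WT, with bars for the mean, error bars for the SD and points for the 3 libraries. The ratio is 0.763 to 0.790 in RIPK3-KO, 0.665 to 0.727 in Villin-cre RIPK3fl/fl and 0.270 to 0.285 in WT.

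Nr1h4, the bile acid receptor gene (ENSMUSG00000047638, mm10 chr10:89454234-89533585, protein-coding), was at 29.0, 29.5 and 25.2 CPM in RIPK3-KO, 39.2, 39.1 and 36.6 CPM in Villin-cre RIPK3fl/fl and 60.7, 67.2 and 62.6 CPM in WT. The groups were ordered RIPK3-KO, Villin-cre RIPK3fl/fl, WT from low to high, with no overlap. It fell in Villin-cre RIPK3fl/fl against WT (log2 fold change -0.73, SE 0.070, edgeR adjusted p = 2.9e-09), and RIPK3-KO lay lower still (-0.46 against Villin-cre RIPK3fl/fl, SE 0.072, adjusted p = 1.6e-05; -1.19 against WT, SE 0.070, adjusted p = 1.8e-13). Against WT, 27.3% of all tested genes rose and 28.1% fell in RIPK3-KO, and 27.2% rose and 28.4% fell in Villin-cre RIPK3fl/fl. Of 13 epithelial markers, 3 rose and 9 fell in RIPK3-KO against WT, and 6 rose and 3 fell in Villin-cre RIPK3fl/fl against WT. Their summed CPM was 16908 to 17227 in RIPK3-KO, 18447 to 19301 in Villin-cre RIPK3fl/fl and 18663 to 18985 in WT, and their part in the fall of Nr1h4 was not tested.

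Nr0b2, which encodes the repressor that FXR induces (ENSMUSG00000037583, mm10 chr4:133553376-133556536, protein-coding), moved in the other direction from Nr1h4, at low counts. It had 24, 43 and 11 counts in RIPK3-KO, 17, 44 and 29 counts in Villin-cre RIPK3fl/fl and 3, 2 and 5 counts in WT. Every deletion library was above every WT library, and the deletion groups overlapped. Nr0b2 rose in RIPK3-KO (edgeR log2 fold change 2.60, SE 0.68, adjusted p = 0.0021) and in Villin-cre RIPK3fl/fl (3.36, SE 0.67, adjusted p = 0.00015) against WT. These fitted values depend on the prior count, since WT had so few reads. Nr0b2 passed the filter on low counts through the deletion groups, where it was high, and that filter favoured a rise. In a fit of RIPK3-KO and WT alone Nr0b2 did not pass the filter and was not tested. With no filter in the fit of all groups its edgeR adjusted p in RIPK3-KO against WT was 0.00023. The ratio of summed counts, scaled to library size, was 6.17 (95% exact binomial interval 3.18 to 13.4) for RIPK3-KO over WT and 10.7 (5.58 to 23.2) for Villin-cre RIPK3fl/fl over WT. Such intervals cover counting error only. RIPK3-KO against Villin-cre RIPK3fl/fl gave -0.76 (SE 0.54, adjusted p = 0.31). Markers of liver, where Nr0b2 is abundant, moved with it in part. Of 10 liver markers 4 were tested, and 2 rose in RIPK3-KO and 3 rose in Villin-cre RIPK3fl/fl against WT. The summed CPM of all 10 was 36.8 to 40.7 in RIPK3-KO, 7.67 to 9.43 in Villin-cre RIPK3fl/fl and 3.47 to 4.78 in WT. Cyp2e1, which fat also expresses, made up 30.7 to 35.7 of the CPM in RIPK3-KO, and Alb, the defining liver transcript, was at 0.739 to 1.09 CPM in RIPK3-KO, 0.0846 to 0.466 CPM in Villin-cre RIPK3fl/fl and 0.0347 to 0.0651 CPM in WT. Alb thus passed the filter on low counts through RIPK3-KO, where it was highest, and that filter favoured a rise. The part of the liver markers in the Nr0b2 result was not tested.

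Fabp6 (ENSMUSG00000020405, mm10 chr11:43596049-43601540, protein-coding) had 24, 13 and 19 counts in RIPK3-KO, 18, 39 and 27 counts in Villin-cre RIPK3fl/fl and 30, 34 and 30 counts in WT. Scaled to library size, these were 0.646, 0.343 and 0.449 CPM in RIPK3-KO, 0.761, 1.49 and 0.969 CPM in Villin-cre RIPK3fl/fl and 0.902, 1.11 and 1.04 CPM in WT. The RIPK3-KO libraries were below all others, while Villin-cre RIPK3fl/fl and WT overlapped. Fabp6 passed the threshold narrowly in RIPK3-KO against WT (edgeR log2 fold change -1.08, SE 0.44, adjusted p = 0.042) and against Villin-cre RIPK3fl/fl (-1.16, SE 0.45, adjusted p = 0.049). The ratio of summed counts was 0.471 (95% exact interval 0.332 to 0.663) for RIPK3-KO over WT and 0.442 (0.309 to 0.627) for RIPK3-KO over Villin-cre RIPK3fl/fl, with intervals for counting error only. These calls lay at the threshold and were lost in 8 of 18 alternatives against WT and 11 of 18 against Villin-cre RIPK3fl/fl. With upper-quartile scaling the edgeR adjusted p was 0.0543 against WT and 0.0541 against Villin-cre RIPK3fl/fl. In the same order it was 0.0588 and 0.0710 with no filter on counts, and 0.0635 and 0.0796 with the replicate number as a block. A fit of RIPK3-KO and Villin-cre RIPK3fl/fl alone gave 0.0751. Over all alternatives the log2 fold change of RIPK3-KO stayed between -1.35 and -0.89 against WT and between -1.43 and -0.86 against Villin-cre RIPK3fl/fl. Against WT the adjusted p was 0.136 without RIPK3-KO replicate 2, 0.0963 without RIPK3-KO replicate 3, and 0.0589, 0.102 and 0.0851 without WT replicates 1, 2 and 3. Against Villin-cre RIPK3fl/fl it was 0.162 and 0.123 without RIPK3-KO replicates 2 and 3, 0.224 and 0.0603 without Villin-cre RIPK3fl/fl replicates 2 and 3, and 0.0614, 0.0636 and 0.0637 without WT replicates 1, 2 and 3. Villin-cre RIPK3fl/fl against WT gave a log2 fold change of 0.08 (SE 0.43, adjusted p = 0.89), with a ratio of summed counts of 1.07 (0.786 to 1.45).

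Slc10a2 (ENSMUSG00000023073, mm10 chr8:5083219-5105351, protein-coding), the uptake transporter, was at 0.754, 0.581 and 0.378 CPM in RIPK3-KO, 0.550, 0.420 and 0.215 CPM in Villin-cre RIPK3fl/fl and 0.180, 0.358 and 0.486 CPM in WT. All groups overlapped. No difference passed the threshold, with edgeR log2 fold changes of 0.74 (SE 0.58, adjusted p = 0.29) for RIPK3-KO against WT, 0.21 (SE 0.62, adjusted p = 0.80) for Villin-cre RIPK3fl/fl against WT and 0.54 (SE 0.59, adjusted p = 0.53) for RIPK3-KO against Villin-cre RIPK3fl/fl. Summed counts of 66 in RIPK3-KO and 31 in WT gave a scaled ratio of 1.68 (95% exact interval 1.08 to 2.67), an interval for counting error only. With the spread between libraries counted as well, a difference was not detectable at this depth.

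Fgf15 (ENSMUSG00000031073, mm10 chr7:144896531-144900953, protein-coding), the hormone that FXR induces in the ileum, had 2, 3 and 1 counts in RIPK3-KO, 0, 2 and 2 counts in Villin-cre RIPK3fl/fl and 0 in each WT library. No library exceeded 3 counts, which correspond to 0.0708 to 0.127 CPM per library and are the limit that a count of 0 allows. A difference was therefore not detectable at this depth, and no fold is given. The exons of Fgf15 also share 787 bases with the antisense genes Gm26793 and Gm39119, so even these reads are uncertain.

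Gpbar1 (ENSMUSG00000064272, mm10 chr1:74278550-74279624, protein-coding, a single exon block in GENCODE M21), the cell surface receptor, had 16, 10 and 12 counts in RIPK3-KO, 7, 6 and 20 counts in Villin-cre RIPK3fl/fl and 0, 4 and 11 counts in WT. The groups overlapped, and 1 WT library had no read. No difference passed the threshold, with edgeR log2 fold changes of 0.96 (SE 0.81, adjusted p = 0.33) for RIPK3-KO against WT, 1.32 (SE 0.82, adjusted p = 0.18) for Villin-cre RIPK3fl/fl against WT and -0.36 (SE 0.75, adjusted p = 0.76) for RIPK3-KO against Villin-cre RIPK3fl/fl. The values rested on single libraries. In Villin-cre RIPK3fl/fl against WT the log2 fold change was 0.65 (adjusted p = 0.607) without Villin-cre RIPK3fl/fl replicate 3, 0.70 (adjusted p = 0.498) without WT replicate 1 and 2.64 (adjusted p = 0.0447) without WT replicate 3. Over the alternatives it ran between 0.35 and 2.29 in RIPK3-KO against WT, with no call. Scaled ratios of summed counts were 2.0 (95% exact interval 1.08 to 3.92) for RIPK3-KO over WT and 2.63 (1.39 to 5.21) for Villin-cre RIPK3fl/fl over WT. These intervals cover counting error only and leave out the spread between libraries, which the uncalled tests include.

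The genes whose log2 CPM over the 9 libraries, centred on the WT mean, lay nearest to each tested gene were also listed, by Euclidean distance. Nearest to Nr1h4 were Il18bp, which encodes a binder of interleukin 18 (distance 0.228), and the transcription factor gene Runx1 (0.230). Il18bp averaged 26.8 CPM in RIPK3-KO, 35.7 CPM in Villin-cre RIPK3fl/fl and 57.5 CPM in WT. Slc51a lay nearest to Ddit3, a stress-response transcription factor gene (0.214), and to Naprt, an enzyme of NAD synthesis (0.246). Naprt averaged 126 CPM in RIPK3-KO, 175 CPM in Villin-cre RIPK3fl/fl and 72.2 CPM in WT. Slc51b had the closest neighbours, Prom1, a membrane glycoprotein gene (0.141), and Cyb5r1 (0.173). The scarce genes had only distant neighbours, at 0.631 for Adam23 and 0.934 for Efnb3 with Slc10a2, 0.756 for Nr4a3 and 0.809 for Ltf with Fabp6, 1.58 for Mettl7b and 1.65 for Mbl2 with Nr0b2, and 1.47 for Alk and 1.58 for Rimbp2 with Gpbar1. The larger distances include the counting noise of scarce genes.

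Other genes of bile acid handling were read from lists, beginning with regulators. Counts of calls in these lists, and in the marker lists, are to be read against the shares over all tested genes. In RIPK3-KO against WT these were 27.3% higher and 28.1% lower, and in Villin-cre RIPK3fl/fl against WT 27.2% higher and 28.4% lower. Between RIPK3-KO and Villin-cre RIPK3fl/fl they were 16.6% higher and 15.1% lower. Of 20 regulators, all tested, 10 rose and 2 fell in RIPK3-KO against WT, and 10 rose and 2 fell in Villin-cre RIPK3fl/fl against WT. The list's median log2 fold change was 0.15 in RIPK3-KO and 0.10 in Villin-cre RIPK3fl/fl against WT, beside 0.014 and 0.016 over all tested genes. Nr1h3, which encodes the oxysterol receptor LXR alpha, averaged 51.6 ± 2.87 CPM in RIPK3-KO, 47.7 ± 4.26 CPM in Villin-cre RIPK3fl/fl and 19.2 ± 1.29 CPM in WT, and rose by log2 fold changes of 1.42 (edgeR adjusted p = 3.0e-14) in RIPK3-KO and 1.31 (adjusted p = 2.8e-13) in Villin-cre RIPK3fl/fl. The nuclear receptor corepressor gene Ncor1 also rose, by 0.66 (adjusted p = 2.3e-10) in RIPK3-KO and 1.03 (adjusted p = 6.5e-14) in Villin-cre RIPK3fl/fl. Rxra, the partner of FXR, belonged to the genes that rose, and it is named here after its values were seen, with log2 fold changes of 0.35 in RIPK3-KO and 0.33 in Villin-cre RIPK3fl/fl. Between RIPK3-KO and Villin-cre RIPK3fl/fl, 3 regulators were higher and 2 lower, with a median of -0.06 beside 0.011 over all genes.

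Among 10 other transporters of bile acids and bile lipids, 7 were tested and all 7 were called in both comparisons with WT, 5 higher and 2 lower each time. Of all tested genes, 55.4% were called in RIPK3-KO and 55.6% in Villin-cre RIPK3fl/fl against WT. Abcc4, a basolateral efflux pump gene, fell in both. It was at 4.52, 5.33 and 5.81 CPM in RIPK3-KO, 3.64, 3.89 and 5.67 CPM in Villin-cre RIPK3fl/fl and 17.8, 18.3 and 17.6 CPM in WT. Its log2 fold change was -1.77 (edgeR adjusted p = 1.1e-10) in RIPK3-KO and -2.01 (adjusted p = 2.8e-11) in Villin-cre RIPK3fl/fl against WT. Abcc2, the apical efflux pump gene, separated the deletions. It was at 179, 205 and 198 CPM in RIPK3-KO, 75.0, 87.0 and 91.6 CPM in Villin-cre RIPK3fl/fl and 122, 114 and 122 CPM in WT. It rose in RIPK3-KO (0.70, adjusted p = 1.8e-09) and fell in Villin-cre RIPK3fl/fl (-0.49, adjusted p = 8.8e-07), and was higher by 1.20 in RIPK3-KO than in Villin-cre RIPK3fl/fl (adjusted p = 4.2e-13). Abcc3, a basolateral efflux pump gene, had the opposite pattern, with -0.46 (adjusted p = 8.1e-08) in RIPK3-KO and 0.20 (adjusted p = 0.0024) in Villin-cre RIPK3fl/fl against WT. Slco2b1, an organic anion uptake transporter gene, and Abcg2, an apical efflux pump gene, rose in both. The list's median was 0.49 in RIPK3-KO and 0.28 in Villin-cre RIPK3fl/fl against WT. It was -0.12 in RIPK3-KO against Villin-cre RIPK3fl/fl, where 1 gene was higher and 3 were lower. Slc10a1, Abcb11 and Abcb4, which act in hepatocytes, had at most 16 counts in any library and were not tested.

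Of 7 genes for the Fgf15 receptor and its secretion, 5 rose and 1 fell in RIPK3-KO and 4 rose and 1 fell in Villin-cre RIPK3fl/fl against WT, with medians of 0.80 in RIPK3-KO and 0.96 in Villin-cre RIPK3fl/fl. Without WT replicate 3, 3 genes in all were called in Villin-cre RIPK3fl/fl against WT. Fgfr4, the main hepatic receptor of Fgf15, fell to 2.34, 1.85 and 1.42 CPM in RIPK3-KO and 2.37, 1.22 and 2.15 CPM in Villin-cre RIPK3fl/fl, against 5.20, 4.98 and 5.38 CPM in WT. The edgeR log2 fold change was -1.47 (adjusted p = 1.4e-05) in RIPK3-KO and -1.44 (adjusted p = 2.9e-05) in Villin-cre RIPK3fl/fl. Malrd1, whose product promotes Fgf15 release, rose by 0.41 (adjusted p = 0.00078) in RIPK3-KO and 0.96 (adjusted p = 7.5e-09) in Villin-cre RIPK3fl/fl. Klb, which encodes the co-receptor, was at 4.50 to 4.91 CPM in RIPK3-KO, 0.144 to 0.508 CPM in Villin-cre RIPK3fl/fl and 0.0976 to 0.240 CPM in WT. It had 167, 176 and 208 counts in RIPK3-KO, 12, 12 and 4 counts in Villin-cre RIPK3fl/fl and 8, 3 and 6 counts in WT, so it passed the filter on low counts through RIPK3-KO, the group where it was high, and its fitted changes over so few reads are approximate. They were log2 fold changes of 4.65 against WT (adjusted p = 1.2e-10) and 3.67 against Villin-cre RIPK3fl/fl (adjusted p = 6.9e-09). Adipocytes express Klb, and the summed CPM of 10 adipocyte markers was 2392 to 2551 in RIPK3-KO, 243 to 259 in Villin-cre RIPK3fl/fl and 115 to 125 in WT. All 10 markers rose in both deletions, and their part in the Klb result was not tested. RIPK3-KO against Villin-cre RIPK3fl/fl gave 2 higher and 1 lower gene, with a median of -0.04.

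The 4 other cell surface receptors of bile acids were expressed at low levels apart from Chrm2, a muscarinic receptor gene. Chrm2 averaged 25.7 ± 1.48 CPM in RIPK3-KO, 10.6 ± 1.19 CPM in Villin-cre RIPK3fl/fl and 9.78 ± 1.67 CPM in WT, and rose in RIPK3-KO against WT (edgeR log2 fold change 1.40, adjusted p = 1.5e-10). Smooth muscle, which expresses it, had summed CPM over 8 markers of 3294 to 3646 in RIPK3-KO, 2860 to 3033 in Villin-cre RIPK3fl/fl and 1398 to 1455 in WT, with all 8 higher in both deletion groups, and its part was not tested. The list gave 2 higher and 1 lower gene in RIPK3-KO against WT (median 0.43), 1 higher and 2 lower in Villin-cre RIPK3fl/fl against WT (median -0.25), and 2 higher in RIPK3-KO against Villin-cre RIPK3fl/fl (median 0.90). In Villin-cre RIPK3fl/fl against WT the calls of Chrm3 (adjusted p = 0.0059) and Fpr1 (adjusted p = 0.0011) held under all 18 alternatives, while some other calls of this list were lost. Fpr1 had 26, 12 and 12 counts in RIPK3-KO, 10, 2 and 2 in Villin-cre RIPK3fl/fl and 37, 35 and 36 in WT. It passed the filter on low counts through WT, the group where it was high. Most alternatives keep that filter, so their agreement on Fpr1 is not independent. In RIPK3-KO against WT, Chrm3 had an adjusted p of 0.122 without RIPK3-KO replicate 2, 0.0974 without WT replicate 1 and 0.102 without WT replicate 3, and the list then had 1 call. Fpr1 there had 0.119 and 0.131 without RIPK3-KO replicates 2 and 3, and 0.0722, 0.0750 and 0.0888 without WT replicates 1, 2 and 3. S1pr2 in Villin-cre RIPK3fl/fl against WT had 0.0529 and 0.0511 without Villin-cre RIPK3fl/fl replicates 2 and 3 and 0.126 without WT replicate 2. Between the deletions S1pr2 had 0.109, 0.0620 and 0.0841 without RIPK3-KO replicates 1, 2 and 3, 0.107 and 0.0983 without Villin-cre RIPK3fl/fl replicates 2 and 3, 0.0514 without WT replicate 1, 0.0520 with no filter on counts and 0.0534 with limma-voom, each of which left 1 call.

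Genes of bile acid synthesis and conjugation, a liver pathway of which the gut expresses some steps, were tested for 12 of 16 members. In each comparison with WT 7 rose and 1 fell, with medians of 0.57 in RIPK3-KO and 0.47 in Villin-cre RIPK3fl/fl. The share called over all tested genes was 55.4% in RIPK3-KO and 55.6% in Villin-cre RIPK3fl/fl. Slc27a2, which encodes a very long-chain acyl-CoA synthetase, averaged 81.5 ± 1.36 CPM in RIPK3-KO, 54.9 ± 2.31 CPM in Villin-cre RIPK3fl/fl and 19.7 ± 1.11 CPM in WT. Its edgeR log2 fold change against WT was 2.05 (adjusted p = 2.7e-19) in RIPK3-KO and 1.48 (adjusted p = 5.7e-16) in Villin-cre RIPK3fl/fl. Scp2, a peroxisomal sterol carrier gene, rose by 0.96 in RIPK3-KO and 0.78 in Villin-cre RIPK3fl/fl. Acox2, the peroxisomal oxidase gene for bile acid intermediates, fell, with -1.09 (adjusted p = 2.8e-05) in RIPK3-KO and -0.99 (adjusted p = 0.00013) in Villin-cre RIPK3fl/fl. Both Slc27a2 and Scp2 also act in fatty acid metabolism. The rate-limiting enzyme gene Cyp7a1 had at most 16 counts and Cyp8b1 at most 10 counts in any library, and neither was tested. Between RIPK3-KO and Villin-cre RIPK3fl/fl, 4 genes were higher and 1 lower, with a median of 0.15.

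All 10 detoxification genes were tested. In RIPK3-KO against WT 6 rose and 4 fell, and in Villin-cre RIPK3fl/fl against WT 6 rose and 1 fell, with medians of 0.44 in RIPK3-KO and 0.53 in Villin-cre RIPK3fl/fl. Cyp2b10, a cytochrome P450 gene, averaged 160 ± 4.76 CPM in RIPK3-KO, 101 ± 3.38 CPM in Villin-cre RIPK3fl/fl and 47.9 ± 2.98 CPM in WT. Its edgeR log2 fold change against WT was 1.74 (adjusted p = 3.1e-19) in RIPK3-KO and 1.08 (adjusted p = 1.3e-14) in Villin-cre RIPK3fl/fl. Cyp3a11, which encodes a P450 that hydroxylates bile acids, rose by 2.92 in RIPK3-KO and 2.94 in Villin-cre RIPK3fl/fl. Papss2, which makes the sulfate donor, fell in RIPK3-KO alone of the 2 tests against WT, with 801 ± 5.18 CPM in RIPK3-KO, 1532 ± 124 CPM in Villin-cre RIPK3fl/fl and 1539 ± 3.68 CPM in WT. It was lower in RIPK3-KO than in either other group (log2 fold change -0.94 in both, adjusted p = 1.3e-14 against WT and 3.3e-14 against Villin-cre RIPK3fl/fl). Akr1b7, an aldo-keto reductase gene, was also lower in RIPK3-KO, by -0.67 against WT and -0.56 against Villin-cre RIPK3fl/fl. RIPK3-KO against Villin-cre RIPK3fl/fl gave 3 higher and 4 lower genes, with a median of -0.04.

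The last list held 4 other genes that FXR is reported to raise in the mouse intestine, Nos2, Il18, Car12 and Ang. Nos2, Car12 and Ang fell in RIPK3-KO against WT (median -1.03), and 2 rose and 2 fell in Villin-cre RIPK3fl/fl against WT (median -0.05). In RIPK3-KO against Villin-cre RIPK3fl/fl, 3 were lower (median -0.95). Nos2, the inducible nitric oxide synthase gene, fell in both to 32.8, 37.9 and 37.0 CPM in RIPK3-KO and 61.4, 70.2 and 73.8 CPM in Villin-cre RIPK3fl/fl, against 180, 178 and 173 CPM in WT. Its groups did not overlap. The edgeR log2 fold change against WT was -2.30 (adjusted p = 4.5e-20) in RIPK3-KO and -1.37 (adjusted p = 1.9e-15) in Villin-cre RIPK3fl/fl. Car12, a carbonic anhydrase gene, fell, with -1.07 in RIPK3-KO and -1.13 in Villin-cre RIPK3fl/fl. Il18, an epithelial cytokine gene, was at 33.2, 28.0 and 29.5 CPM in RIPK3-KO, 60.0, 56.0 and 60.8 CPM in Villin-cre RIPK3fl/fl and 28.2, 30.2 and 27.7 CPM in WT. It rose in Villin-cre RIPK3fl/fl against WT (1.04, adjusted p = 6.3e-12) and was lower by -0.96 in RIPK3-KO than in Villin-cre RIPK3fl/fl (adjusted p = 4.1e-11). By group means, 1 of these 4 genes, Nos2, had the groups in the order of Nr1h4.

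**Figure D4:**
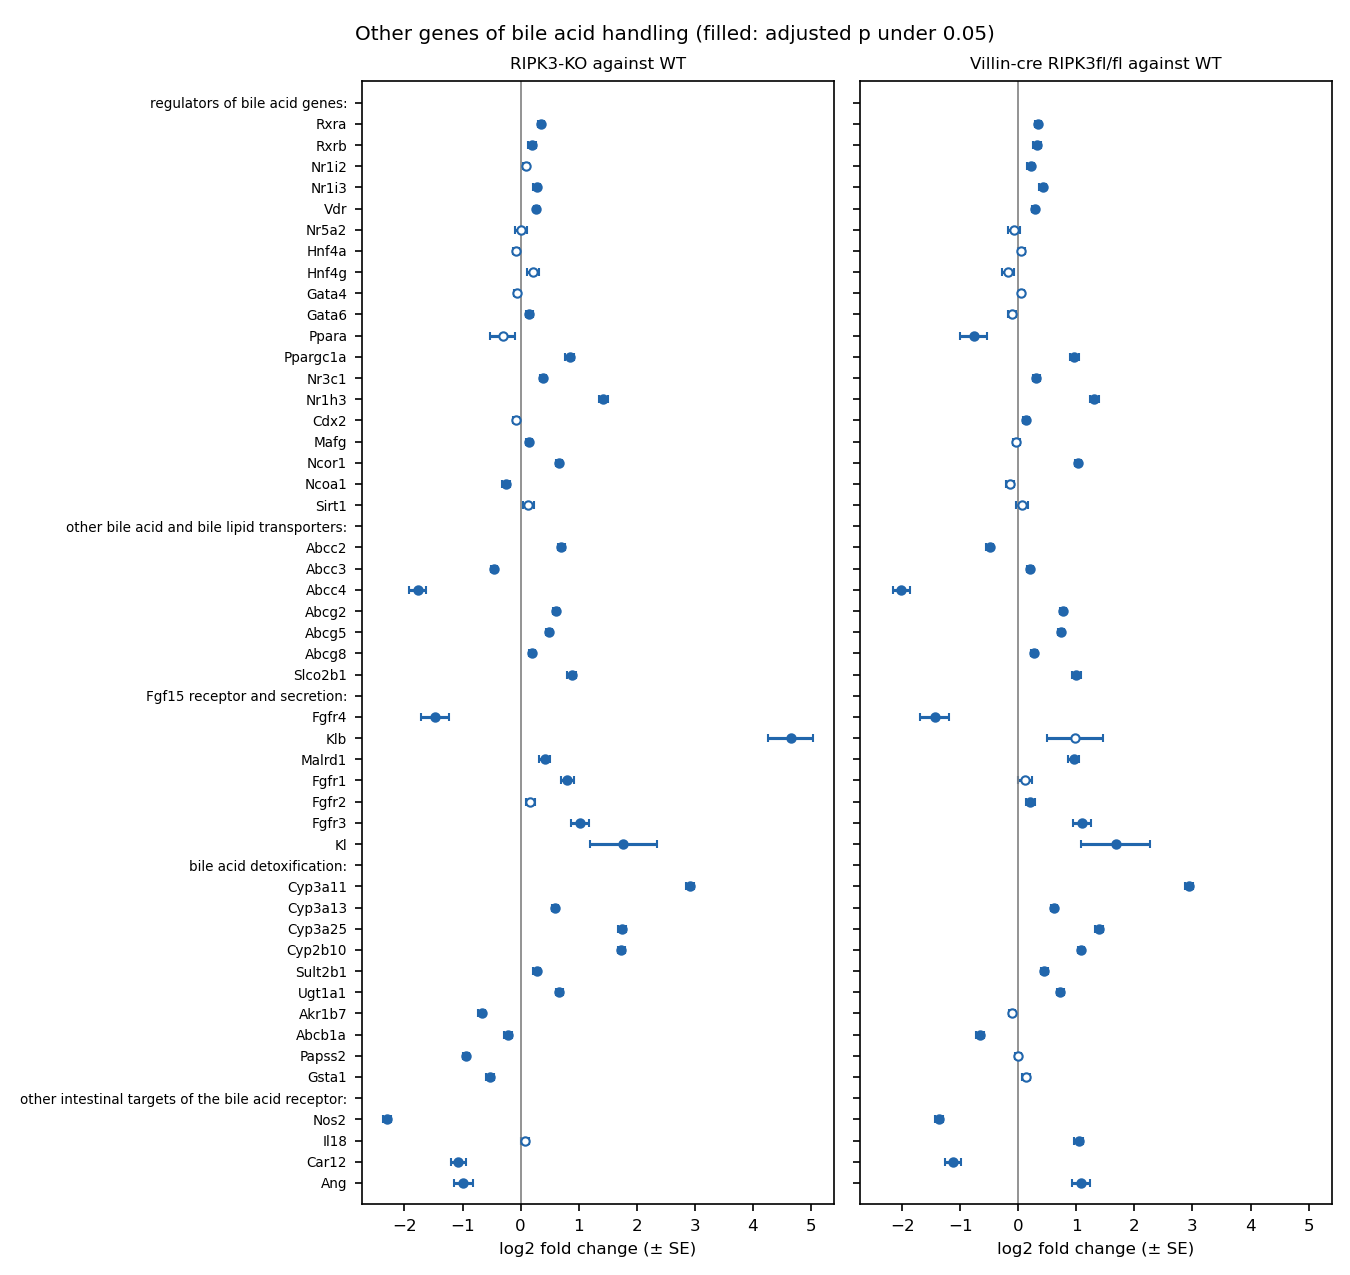
Fitted log2 fold change with its SE (horizontal axis) of tested genes in 5 lists of bile acid handling, for RIPK3-KO and for Villin-cre RIPK3fl/fl, each against WT, with filled points for adjusted p under 0.05. Both panels share the WT libraries, and Abcc2, Abcc3 and Ang are filled in both and lie on opposite sides.

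Markers of position and of other cells also moved with the groups. Against WT, 55.4% of all tested genes were called in RIPK3-KO and 55.6% in Villin-cre RIPK3fl/fl. Of 16 genes of the proximal small intestine, 10 rose and 3 fell in RIPK3-KO and 10 rose and 2 fell in Villin-cre RIPK3fl/fl against WT. Their summed CPM was 25678 to 27229 in RIPK3-KO, 20325 to 23372 in Villin-cre RIPK3fl/fl and 12679 to 12813 in WT. They did not move as 1 block: Lct, the lactase gene, averaged 735 CPM in RIPK3-KO, 437 CPM in Villin-cre RIPK3fl/fl and 162 CPM in WT, while Pdx1, a duodenal transcription factor gene, averaged 8.21 CPM in RIPK3-KO, 30.0 CPM in Villin-cre RIPK3fl/fl and 41.0 CPM in WT. Between RIPK3-KO and Villin-cre RIPK3fl/fl, 6 proximal genes were higher and 6 lower. Of 10 distal genes 8 were tested, and 5 rose and 1 fell in RIPK3-KO and 6 rose and 1 fell in Villin-cre RIPK3fl/fl against WT. Their summed CPM was 328 to 364 in RIPK3-KO, 359 to 383 in Villin-cre RIPK3fl/fl and 81.7 to 85.3 in WT, mostly Car4, a carbonic anhydrase gene at 258 CPM in RIPK3-KO, 273 CPM in Villin-cre RIPK3fl/fl and 53.7 CPM in WT. The colonic hormone gene Insl5 had no read in any library. Between RIPK3-KO and Villin-cre RIPK3fl/fl 1 distal gene was called, Nts, which was lower in RIPK3-KO, with 2 calls without RIPK3-KO replicate 1. Car1, the distal gene that fell, averaged 0.068 CPM in RIPK3-KO, 0.096 CPM in Villin-cre RIPK3fl/fl and 0.52 CPM in WT. It had 20, 10 and 18 counts in WT and at most 8 in any other library. Car1 thus passed the filter on low counts through WT, the group where it was high, and that filter favoured a fall. In RIPK3-KO against WT its adjusted p was 0.0626 without RIPK3-KO replicate 1 and 0.0518 without WT replicate 3. In Villin-cre RIPK3fl/fl against WT it was 0.0553 and 0.0590 without RIPK3-KO replicates 2 and 3, 0.147 and 0.166 without Villin-cre RIPK3fl/fl replicates 1 and 2, 0.0564 and 0.120 without WT replicates 2 and 3, 0.0563 with no filter on counts and 0.0504 with DESeq2.

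Absorptive enterocyte markers, the cells in which the bile acid transporters act, had a summed CPM of 23543 to 23712 in RIPK3-KO, 22764 to 23689 in Villin-cre RIPK3fl/fl and 15912 to 16071 in WT. Of these 18 markers 16 rose and 2 fell in RIPK3-KO and 14 rose and 1 fell in Villin-cre RIPK3fl/fl against WT. Over all tested genes, 27.3% rose in RIPK3-KO and 27.2% rose in Villin-cre RIPK3fl/fl against WT. Nr1h4 fell and Slc51a rose in the same libraries. All 14 exocrine pancreas markers fell in RIPK3-KO and 13 rose in Villin-cre RIPK3fl/fl against WT, and they summed to 107 to 120 CPM in RIPK3-KO, 19427 to 20759 CPM in Villin-cre RIPK3fl/fl and 2659 to 2724 CPM in WT. The 10 enteroendocrine markers summed to 158 to 170 CPM in RIPK3-KO, 306 to 346 CPM in Villin-cre RIPK3fl/fl and 129 to 134 CPM in WT, with 6 higher in RIPK3-KO and 8 higher in Villin-cre RIPK3fl/fl against WT. The 10 macrophage markers, 9 of them tested, summed to 493 to 525 CPM in RIPK3-KO, 307 to 327 CPM in Villin-cre RIPK3fl/fl and 471 to 485 CPM in WT, with 4 higher and 2 lower in RIPK3-KO and 1 higher and 8 lower in Villin-cre RIPK3fl/fl. The 8 T cell markers summed to 28.5 to 30.4 CPM in RIPK3-KO, 27.1 to 28.3 CPM in Villin-cre RIPK3fl/fl and 42.8 to 45.4 CPM in WT, with 4 lower in RIPK3-KO and 6 lower in Villin-cre RIPK3fl/fl. The 7 erythroid markers, 6 of them tested, summed to 621 to 693 CPM in RIPK3-KO, 398 to 469 CPM in Villin-cre RIPK3fl/fl and 377 to 385 CPM in WT, with 5 higher in RIPK3-KO and 2 higher in Villin-cre RIPK3fl/fl. The part of these cells in the changes of the bile acid genes was not tested. With TMM factors computed without pancreas, adipocyte and erythroid genes, the same numbers of the 8 genes were called, 5, 3 and 4. That setting changes the scaling alone and cannot show what these cells contribute to the counts.

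**Figure D5:**
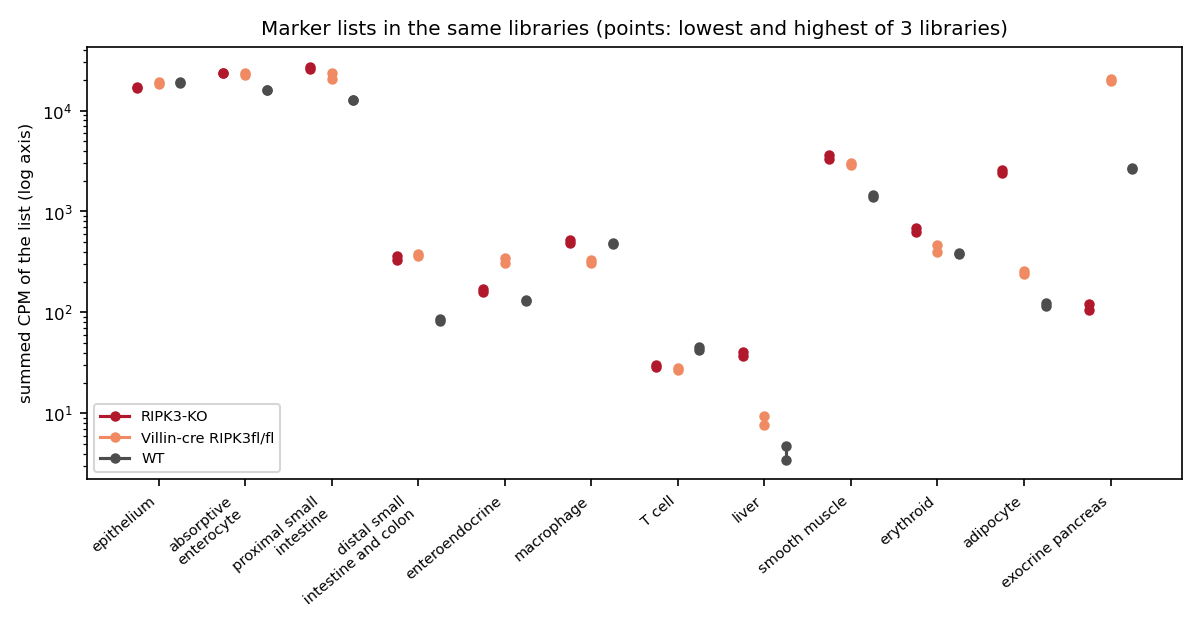
Summed CPM of 12 marker lists (vertical log axis) in RIPK3-KO, Villin-cre RIPK3fl/fl and WT, with points for the lowest and the highest of 3 libraries. The pancreas list is at 107 to 120 CPM in RIPK3-KO, 19427 to 20759 CPM in Villin-cre RIPK3fl/fl and 2659 to 2724 CPM in WT, and the adipocyte list at 2392 to 2551 CPM in RIPK3-KO, 243 to 259 CPM in Villin-cre RIPK3fl/fl and 115 to 125 CPM in WT, while the epithelial list stays between 16908 and 19301 CPM.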

How the data were processed

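The deposited table gives whole-number counts and TPM per gene for 9 libraries. Total RNA was depleted of ribosomal RNA, and the kits named are stranded, per the labels' protocols. The submitters' processing notes name Trimmomatic, STAR, HTSeq, DESeq2 and mm10, without roles or versions. TPM columns, made by the authors, sum to at least 999966 in each library. Another 18 per-sample columns were not used. Of 48708 genes, 23245 had 0 counts everywhere, and 1 line was left empty.

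Group differences in counts came from the quasi-likelihood test of edgeR 4.0.16 (R 4.3.3), after filterByExpr by group (16539 genes) and TMM scaling (factors 0.932 to 1.043), with robust dispersions, a mean for each of the 3 groups and Benjamini-Hochberg adjustment over all tested genes. The common biological coefficient of variation was 0.081. CPM used TMM-scaled library sizes. The procedure was tested on simulated data. Libraries of 1 group differed beyond sampling noise (chi-square per degree of freedom 3.57 to 12.0), so each was counted as 1 sample. Names matched GENCODE M21, while the deposited spans of Slc51a and Slc51b differed from it.

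The members and lists were chosen with earlier results of these data known. Text names the 8 genes, Ripk3, up to 2 higher and 2 lower called genes of each list by smallest p in each comparison, the 2 nearest genes of each member, and the top marker of each cell list, and any gene outside this rule was chosen after its values were seen. Of the regulators, 1 is counted with its list and not reported here. Alternatives were RLE and upper-quartile scaling, TMM without pancreas, adipocyte and erythroid genes, 2 other filters, fits of 2 groups, DESeq2 1.42.0, limma-voom (limma 3.58.1), a replicate block and leaving out each library.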

Additional observations from a re-analysis of the deposited data

How the results depend on the processing

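Across the 18 alternatives, 8240 to 9623 genes were called in RIPK3-KO against WT, 8315 to 9431 in Villin-cre RIPK3fl/fl against WT and 4069 to 5371 in RIPK3-KO against Villin-cre RIPK3fl/fl. Of the bile acid genes, 4 to 5, 2 to 4 and 3 to 4 were called. The calls of Nr1h4 and Slc51a in all 3 comparisons, and of Slc51b in the 2 with RIPK3-KO, held under every alternative. Nr0b2 was tested in 16 alternatives for RIPK3-KO and 17 for Villin-cre RIPK3fl/fl against WT, and was called in each. Most of these kept a filter that Nr0b2 passed through the deletion groups, where it was high, so their agreement is not independent. Fabp6 was not called in 8 of 18 alternatives for RIPK3-KO against WT (adjusted p 0.0246 to 0.136) and in 11 of 18 for RIPK3-KO against Villin-cre RIPK3fl/fl (0.0263 to 0.224). Signs of uncalled values turned in 5 cases: in Villin-cre RIPK3fl/fl against WT, Slc10a2 (-0.11 to 0.54 over the left-out libraries) gave -0.10 without Villin-cre RIPK3fl/fl replicate 1 and -0.11 without WT replicate 1, and Fabp6 (-0.22 to 0.27) gave -0.22 without Villin-cre RIPK3fl/fl replicate 2 and -0.0020 without WT replicate 1. In RIPK3-KO against Villin-cre RIPK3fl/fl, Gpbar1 (-0.65 to 0.31) gave 0.31 without Villin-cre RIPK3fl/fl replicate 3. The cause was not tested. The log2 difference of the Slc51a to Slc51b ratio stayed between 1.46 and 1.49 for RIPK3-KO against WT, 1.31 and 1.38 for Villin-cre RIPK3fl/fl against WT, and 0.10 and 0.17 for RIPK3-KO against Villin-cre RIPK3fl/fl when single libraries were left out. Depth limits what can be detected for the 5 genes with at most 44 counts in any library.

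Replicate numbers were not used as pairs: residuals of same-numbered libraries correlated between -0.04 and 0.09, and 2 of 18 matches were best with the own number. With the number as a block, 9211, 9247 and 5371 genes and 4, 3 and 3 bile acid genes were called in RIPK3-KO against WT, Villin-cre RIPK3fl/fl against WT and RIPK3-KO against Villin-cre RIPK3fl/fl. Fabp6 then had adjusted p = 0.0635 and 0.0796 in the comparisons with RIPK3-KO, and 8 regulators were called between the deletions, against 5 without the block.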
